A study of Mus musculus with 5 samples.

Results

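The comparison set mouse sarcoma cells taken 3 h after a high dose of doxycycline against control cells of the same time, with 1 one-colour array on each side, which are 2 of the 5 arrays of the series. The cells came from tumour lines derived from soft tissue sarcomas of mice with a doxycycline-inducible EWS/ATF1 fusion allele, on a mixed strain background of C57/BL6, 129 and ICR. Every group carries that inducible allele, the controls included, and the labels call the cells of all groups tumor cells. The other arrays hold a low dose at 3 h, a control at 48 h and a high dose at 48 h, and they are used here only to set the 3 h difference against. The doses are named high and low without a concentration. Whether control cells received any doxycycline, which promoter drives the allele, which tumour line or lines gave each array and whether a line is 1 clone are questions on which the sources used here are silent. Dose and tumour line or culture therefore cannot be told apart. Of 20018 named genes on the array, 14004 were well above background on both 3 h arrays, and these are the genes described.

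EWS/ATF1 joins the transcription-activating end of the RNA-binding protein EWS to the DNA-binding end of ATF1, and it is the fusion that defines clear cell sarcoma, a soft tissue tumour with melanocyte features. ATF1 and its relatives CREB and CREM bind the cAMP response element, or CRE, in the promoters of genes that respond to cAMP and growth factors. Many of those targets, Fos and Nr4a1 among them, are immediate early genes, which are transcribed within minutes of a stimulus without new protein being made, and whose products include the AP-1 transcription factors.

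Levels are log2 signals relative to the 75th percentile of signal on the same array, which was 725 on the 3 h control and 556 on the 3 h high-dose array. A gene was called higher or lower where the high-dose array differed from the control by 2-fold, a log2 difference of 1. With 1 array per group no difference has a replicate check, an SD or a p-value. The spread between spots of probes printed 10 times (median SD of the difference 0.11 over 399 probes) and the scanner software's own error (median 0.20 per difference) hold no variation between cultures. In bulk RNA, fewer cells of a type and less RNA per cell cannot be told apart.

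After 3 h of the high dose, the early response transcription factor genes Fos, Egr1 and Npas4 stood among the largest rises. So did Areg and Ereg, which encode ligands of the EGF receptor, and the MAP kinase phosphatase gene Dusp2. Ccn1, of a matrix-associated protein, and Pmepa1, of a TGF-beta feedback protein, were also among them. Pmepa1 rose by 3.40 from the 3 h control but by 1.01 from the 48 h control. Genes of other kinds rose as much, among them Ifna5 (4.16), Zfhx2 (4.08), Krtap4-16 (3.64) and Wdr92 (3.60). The listed genes induced by interferon stood mostly on the lower side. In all 261 genes were higher and 202 lower, which is 463 of 14004, or 3.31%. The higher genes made up 1.86% and the lower genes 1.44% of those measured. The higher side held 56.4% of the calls, but 40.7% when arrays were centred on their medians and 39.1% when the 48 h control array took the place of the 3 h control. The median difference over all measured genes was -0.01, and -0.13 with median centring. Differences were small for most genes, 62.4% lying within 0.25 of 0. Called genes were more frequent among dim probes, at 7.43% of the 3501 genes of lowest mean level and 0.857% of the 3501 of highest.

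**Figure D1:**
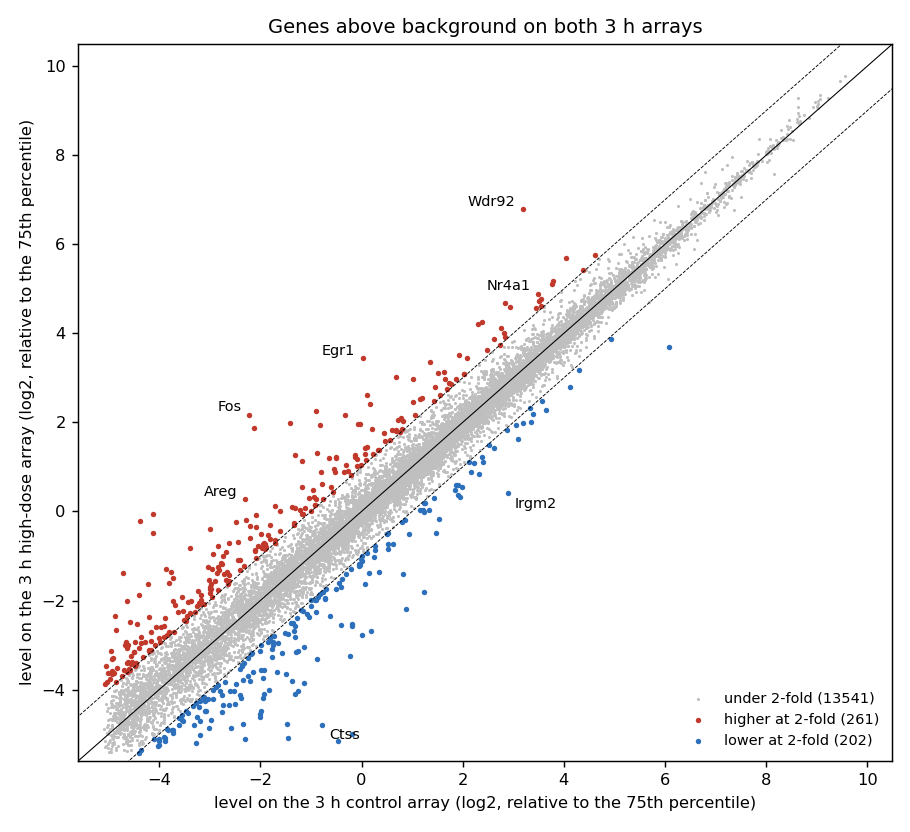
Level of each of the 14004 measured genes on the 3 h control array (x axis) and the 3 h high-dose array (y axis), both log2 relative to the array's 75th percentile. The solid line marks equal levels and the dashed lines 2-fold; 261 genes (red) lie above the upper and 202 (blue) below the lower dashed line, most of them at the dim end, and Fos, Egr1 and Areg lie above.

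The 48 h control array served as a second control. It differed from the 3 h control by 2-fold in 542 of 14017 genes, or 3.87%, so the total of calls at the high dose was below the total between the control arrays. Set against the 48 h control, 116 of the 261 higher genes stayed 2-fold higher, 111 kept the sign under 2-fold, 29 lost the sign and 5 were below background on that array. Of the 202 lower genes, 60 stayed 2-fold lower, 99 kept the sign under 2-fold, 37 lost it and 6 were below background. The high-dose array is shared by both differences. Genes past 2-fold against both controls made up 0.832% of 13948 genes upward and 0.43% downward. Of the 37 rises of at least 2 on the log2 scale 1 lost its sign, and of the 31 falls of that size 7 did. Loss of the sign was found in 50 of 260 called genes among the 3501 dimmest (19.2%) and in 4 of 30 among the 3501 brightest.

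**Figure D2:**
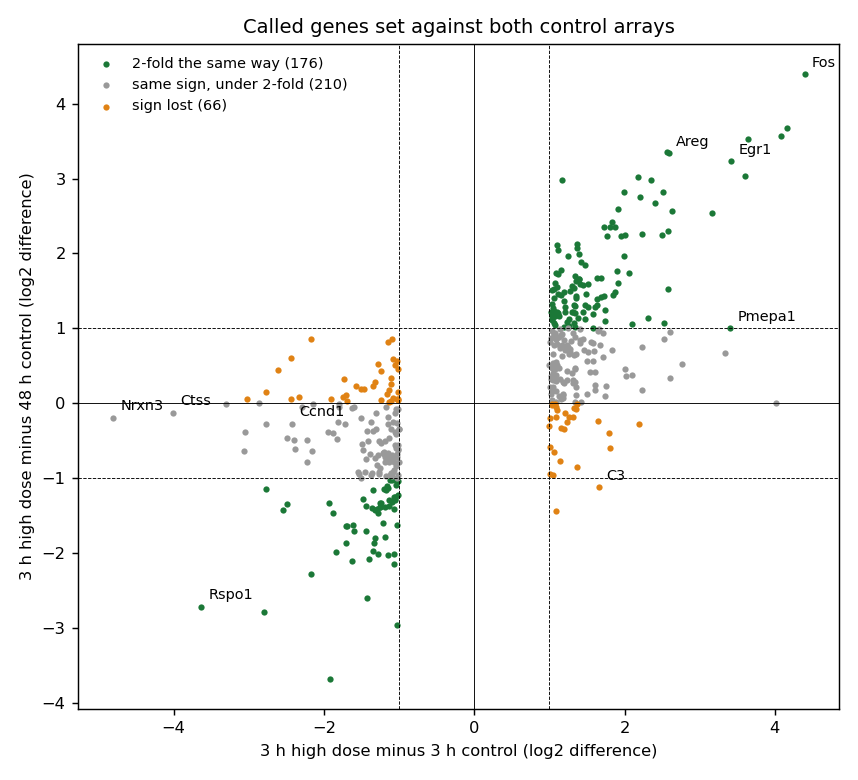
Log2 difference of the called genes from the 3 h control (x axis) and from the 48 h control (y axis), with dashed lines at 2-fold. The 176 green genes are 2-fold the same way against both controls, 210 grey genes keep the sign under 2-fold and 66 orange genes lose it. Fos lies at 4.40 and 4.39, whereas Ctss lies near 0 on the y axis.

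Fos encodes a subunit of AP-1 and was the gene with the largest rise of all measured genes. Its level was -2.22 on the 3 h control, -0.50 on the low-dose and 2.18 on the high-dose array of 3 h, then -2.22 on the 48 h control and 2.86 at the high dose of 48 h. Both controls sat together and all 3 treated arrays lay above them. High dose and control differed by 4.40 at 3 h, or 21.1-fold, with a scanner error of 0.07, and by 4.39 when the 48 h control was used. Of the 14 AP-1 genes, 12 were measured, 3 were higher and 0 were lower, with a median of 0.39 (0.22 against the 48 h control). Over all measured genes 1.86% were higher and 1.44% lower than on the 3 h control. The counts of every list below from that control are to be set beside these shares. Maff, a small Maf protein gene, had levels of -1.18, 0.69, 0.54, -0.89 and 1.23 in the same order of arrays, and its difference was 1.72. Batf3, which encodes a partner of Jun proteins, was at -0.01, 0.62, 1.05, -0.48 and 1.78 and was higher by 1.06. For both genes each treated array lay above each control array. The other Fos and Jun genes stayed under 2-fold, with Fosb at 0.10, Fosl2 at 0.06, Jun at -0.15, Junb at 0.65 and Jund at 0.38. Atf3, Jdp2, Mafg and Mafk were at 0.41, 0.41, -0.02 and 0.13. Fosl1 was below background on the 3 h control and above it on every treated array, but its bound did not reach 2-fold. Batf was below background on all 5 arrays.

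Egr1, a zinc finger transcription factor gene of the early response, was higher by 3.42, from a level of 0.02 on the 3 h control to 3.44 at the high dose. The low-dose array held it at 1.92, the 48 h control at 0.21 and the 48 h high dose at 2.15, so the control arrays were the lowest pair here as well. Its relative Egr2 was below background on the 3 h control and at a level of -1.32 at the high dose, a rise of at least 14.5-fold, and on the 48 h arrays it was back at -4.49 and -4.54. Npas4, a factor known from neurons for its response to calcium and activity, had levels of 0.10, 2.22, 2.62, -0.21 and -0.14, which sets both 3 h doses apart from the other 3 arrays, and its difference was 2.52. The immediate early gene Ier2 was at -1.98, -1.71, -0.50, -1.95 and -0.79, a difference of 1.48. Srf, the serum response factor gene, was higher by 1.03 and 1.08 on its 2 probes, with its levels at 0.57, 1.39, 1.60, 0.44 and 0.34. Like Npas4, Srf was raised on the 3 h arrays and not at 48 h, where its high-dose level lay below that of the control.

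The NR4A genes encode orphan nuclear receptors that are standard CREB targets. Nr4a1 was at 3.48, 3.84, 4.89, 3.30 and 4.58 over the arrays, a difference of 1.41 at 3 h. Nr4a3 was below background on both control arrays and had a level of -2.99 at the high dose of 3 h and -0.39 at that of 48 h, a rise of at least 4.54-fold at 3 h. Nr4a2 stood just under the threshold, at 0.99 on the probe used and 1.02 on a second one. Among the 30 early response transcription factor genes 25 were measured, of which 5 were higher and 0 lower around a median of 0.10, and Egr2 and Nr4a3 came on top as bounds. Against the 48 h control 8 members were higher, a comparison in which 1.97% of 14325 genes were higher and 3.07% lower. Other members under 2-fold were Nfil3 at 0.96, Klf4 at 0.76 and Csrnp1 at 0.69, and on the other side Hes1 at -0.93, Klf10 at -0.55 and Cebpd at -0.49. Myc was at -0.21, Cebpb at 0.40, and Ier5, Ier5l, Klf2, Klf6, Klf9, Cited2, Bhlhe40, Id1, Id2, Id3 and Id4 lay between -0.35 and 0.19. Egr3, Egr4 and Rel were not above background on both arrays. Over all measured genes 1.86% were higher and 1.44% lower. Early response genes that encode other proteins had 2 of 30 measured members higher and 0 lower, with a median of 0.17. They were Gadd45a, a growth arrest and DNA damage gene, at 1.66, and Btg2, an antiproliferative gene, at 1.03. Against the 48 h control Gadd45a was at 0.997, just under 2-fold, and Btg2 at 1.32.

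**Figure D3:**
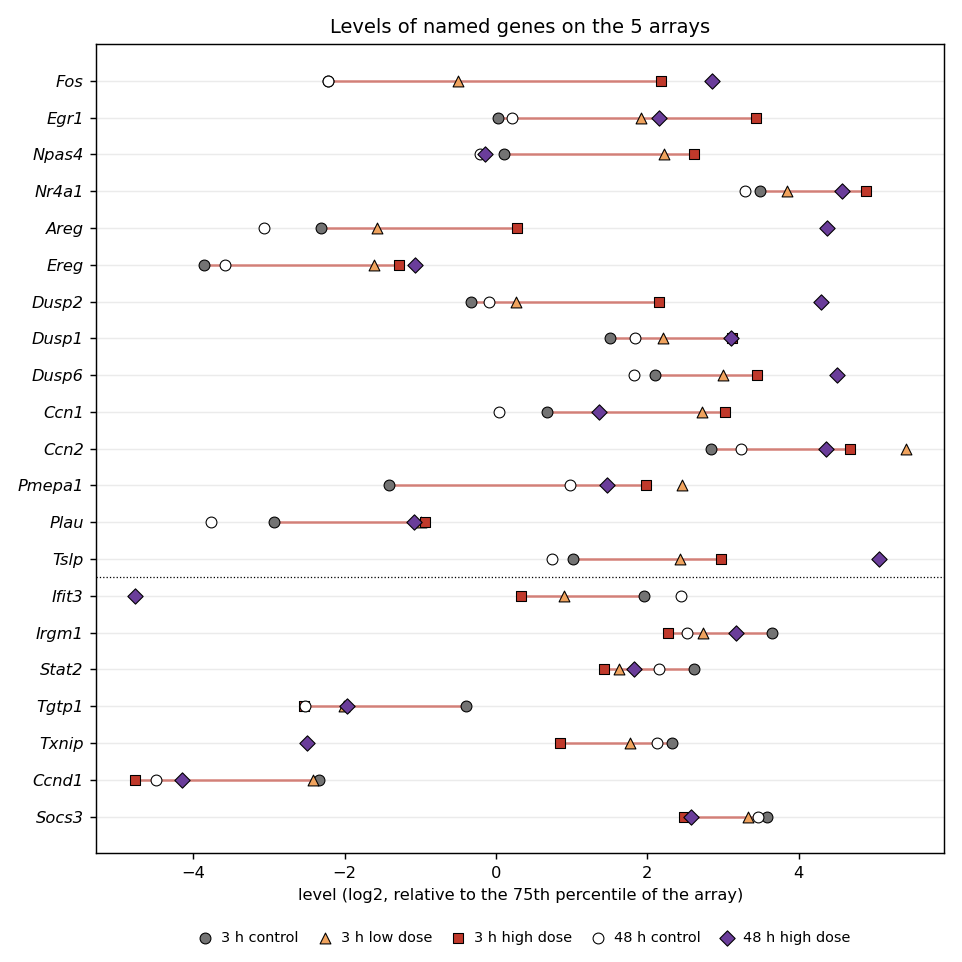
Level of 21 named genes on each of the 5 arrays (log2 relative to the array's 75th percentile), 1 row per gene, with a red line from the 3 h control to the 3 h high dose and genes that rose above the dotted line. Fos and Egr1 are lowest on the 2 controls and higher on every treated array, Npas4 is high at 3 h only, and for Tgtp1 and Ccnd1 the 48 h control lies with the 3 h high dose.

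The promoter sequences of Fos, Areg, Dusp1 and Npas4 are shown because the fusion carries the DNA-binding end of ATF1. These higher genes were picked for holding a match, not for the size of the rise alone. They come from RefSeq on build GRCm38.p6 and span 250 bases before to 50 bases after the transcription start. Capitals mark matches to the CRE, TGACGTCA, or to its core, TGACG, searched on both strands, and every CRE contains the core. Fos (chr12:85473640-85473939, plus strand) held cores beginning at -129 and -66 relative to the start. Areg (chr5:91139349-91139648, plus strand) held a CRE at -61. Dusp1 (chr17:26508423-26508722, minus strand) held a CRE at -143. Npas4 (chr19:4989922-4990221, minus strand) held cores at -179 and -169, the first read on the opposite strand. In the Areg and Dusp1 windows only the full CRE is in capitals. Among other large rises, the windows of Ifna5, Krtap4-16 and Wdr92 held neither, and those of Zfhx2 and C2cd4b held a core.
Fos: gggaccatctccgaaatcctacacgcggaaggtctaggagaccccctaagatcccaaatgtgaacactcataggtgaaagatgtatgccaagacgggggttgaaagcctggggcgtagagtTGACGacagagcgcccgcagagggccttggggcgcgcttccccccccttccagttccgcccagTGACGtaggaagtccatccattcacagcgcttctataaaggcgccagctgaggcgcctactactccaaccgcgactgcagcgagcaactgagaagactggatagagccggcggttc
Areg: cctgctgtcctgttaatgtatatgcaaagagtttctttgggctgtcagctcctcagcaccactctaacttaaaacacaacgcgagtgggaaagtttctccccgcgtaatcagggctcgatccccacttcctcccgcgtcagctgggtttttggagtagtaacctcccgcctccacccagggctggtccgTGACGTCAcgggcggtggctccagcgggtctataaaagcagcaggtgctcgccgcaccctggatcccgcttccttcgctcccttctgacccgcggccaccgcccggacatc
Dusp1: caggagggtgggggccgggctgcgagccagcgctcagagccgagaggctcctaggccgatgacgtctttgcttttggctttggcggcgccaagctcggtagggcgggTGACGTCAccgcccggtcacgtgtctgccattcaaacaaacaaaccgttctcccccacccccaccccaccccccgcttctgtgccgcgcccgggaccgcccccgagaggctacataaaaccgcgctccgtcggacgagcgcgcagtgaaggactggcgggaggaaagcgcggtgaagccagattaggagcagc
Npas4: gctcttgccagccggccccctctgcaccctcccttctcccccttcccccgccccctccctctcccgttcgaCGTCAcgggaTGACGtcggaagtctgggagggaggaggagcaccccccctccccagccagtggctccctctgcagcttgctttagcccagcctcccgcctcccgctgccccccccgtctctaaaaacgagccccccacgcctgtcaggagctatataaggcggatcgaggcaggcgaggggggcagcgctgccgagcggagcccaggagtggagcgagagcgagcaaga

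Over all genes these letters were common. A window was found for 11150 of the 14004 measured genes, and 3.43% of those genes held a CRE and 33.4% a core. A gene with several windows counted if any of them held the match. Among the 194 higher genes with a window 4.12% held a CRE and 29.9% a core. Among the 85 that were also higher against the 48 h control the shares were 7.06% and 36.5%. The CRE share there rests on 6 genes, Areg, Ptpru, Maff, Dusp1, Epha2 and Btg2. Among the 20 higher genes with a window whose sign was lost against the 48 h control, 5% held a CRE and 40% a core. In the 148 lower genes with a window the shares were 2.03% and 23.6%, and in the 25 of them that lost their sign 8% and 20%. The promoter table as a whole, with 32851 windows that include several starts of 1 gene, gave 1.79% and 20.8%. In the list of CREB and cAMP targets, which was picked for such sites, 5 of the 23 genes with a window held a CRE and 17 a core. The AP-1 site TGANTCA was found in 6.5% of measured, 10.3% of higher and 10.8% of lower genes (7.81% of all windows). A match is a description of the letters and not a bound site, and a window without one may have sites elsewhere.

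**Figure D4:**
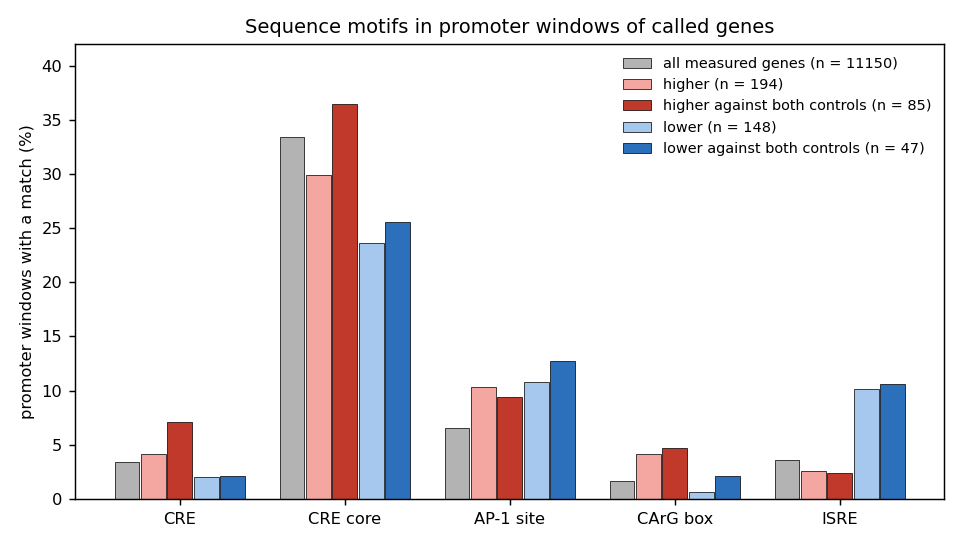
Share of genes with a promoter window (250 bases before to 50 after the start) that hold each motif on either strand in any of their windows (percent). The bars are for all measured genes and for genes higher or lower at 3 h, against the 3 h control alone or against both controls. The CRE bar of genes higher against both controls (7.06%) stands above that of all measured genes (3.43%) and rests on 6 of 85 genes; the ISRE bar of lower genes (10.1%) stands above 3.61%.

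Of 38 CREB and cAMP targets and feedback genes 31 were measured, with 6 higher, 1 lower and a median of 0.29 (0.16 against the 48 h control). Fos, Areg, Npas4, Nr4a1 and Dusp1 are 5 of the 6, and the list shares these members with others. The sixth was Vgf, a secreted neuropeptide precursor gene, at 1.02, 2.94, 2.45, 2.42 and 4.26. Its difference of 1.42 from the 3 h control shrank to 0.02 against the 48 h control. Vip, which encodes vasoactive intestinal peptide and is a classical CRE-driven gene, was the member that was lower, at -1.15, -0.79, -3.85, -7.53 and -0.95. The 48 h control, on which Vip was below background, lay far under the high dose, so the fall of 2.71 was seen from the 3 h control only. Among members under 2-fold, the phosphodiesterase genes Pde4d and Pde4b were at 0.78 and 0.75 and the neurotrophin gene Bdnf at 0.74. Crem, Pde10a, Pcsk1, Gal, Adcyap1, Inhba, Star, G6pc, Per1, Per2, Penk, Crtc3 and Akap12 lay between 0.02 and 0.55. Ppargc1a, Tac1, Crtc1, Crtc2, Prkar1a, Sik1 and Scg2 lay between -0.43 and -0.01. Nptx2, Sst, Nts, Pdyn, Crh and Pck1 were not above background on both arrays. The probes of Ewsr1 and Atf1, the genes joined in the fusion, stood at 0.12 and 0.15, and of the 11 measured fusion parent and related genes 0 were called (median 0.12). Their probe sequences were not analysed here, so these values do not check the induction of the fusion.

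EGF family ligands bind and activate the EGF receptor and its relatives. Areg, the amphiregulin gene, had levels of -2.31 on the 3 h control, -1.58 after the low and 0.28 after the high dose of 3 h, -3.07 on the 48 h control and 4.37 at the high dose of 48 h. All treated arrays exceeded both controls, the low dose by less than 2-fold over the 3 h control. The high dose exceeded the 3 h control by 2.59 and the 48 h control by 3.34. Ereg, the epiregulin gene, was at -3.86, -1.62, -1.28, -3.59 and -1.07, a difference of 2.58, and its treated arrays lay close together. These were the 2 higher members among 12 measured, 0 were lower, and the median was 0.15. The other ligand genes were at 0.90 for Nrg1, 0.82 for Epgn, 0.56 for Hbegf, 0.27 for Btc, 0.02 for Egf, -0.13 for Nrg4, -0.30 for Tgfa and -0.98 for Nrg2. The receptor genes Egfr and Erbb2 stood at -0.01 and -0.11, while Erbb3 and Erbb4 were not above background on both arrays.

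Dual-specificity phosphatases remove phosphate from MAP kinases and are induced by the same kinases. Of 9 measured members 4 were higher and 0 lower, and the median of 0.64 was the highest of the 26 lists (0.80 against the 48 h control). Dusp2 was at -0.33, 0.26, 2.16, -0.09 and 4.30 and differed by 2.49. Dusp1 was at 1.504, 2.20, 3.12, 1.83 and 3.11 and differed by 1.61. Dusp6, a phosphatase specific for ERK, was at 2.09, 3.00, 3.45, 1.82 and 4.51 and differed by 1.36. For these 3 genes every treated array stood above both controls. Dusp4 differed by 1.30 from the 3 h and by 0.40 from the 48 h control. Dusp14, Dusp16 and Dusp10 were at 0.64, 0.60 and 0.59, and Dusp7 and Dusp8 at -0.35 and -0.32.

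ERK feedback and output genes had 6 of 21 measured members higher and 1 lower around a median of 0.46 (0.26 against the 48 h control). The urokinase gene Plau was at -2.94, -0.99, -0.94, -3.77 and -1.08 and its receptor gene Plaur at -3.02, -0.19, -1.54, -3.39 and 0.32, so that both were higher on every treated array, at 3 h by 1.99 and 1.47. Etv4, a PEA3 factor gene, was higher by 1.10 and on its second probe by 1.02. Lif, the gene of an IL-6 family cytokine, was higher by 1.72, and Etv1, of the PEA3 group too, by 1.12. Against the 48 h control they stood at 0.94 and 0.10. Vgf is the sixth member. Ccnd1, the cyclin D1 gene, was lower by 2.43, from -2.34 on the 3 h control to -4.77, but the 48 h control lay at -4.50 and the difference from it was -0.27. The Sprouty genes that restrain ERK signalling lay between -0.48 (Spry4) and 0.27 (Spry2).

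Targets of serum response factor, of YAP and the CCN genes had 5 of 26 measured members higher and 1 lower around a median of 0.14 (0.35 against the 48 h control). Ccn1, the gene of a secreted protein that associates with matrix, was at 0.67, 2.73, 3.02, 0.04 and 1.35 and differed by 2.35, or 5.10-fold. Ccn2 was at 2.84, 5.42, 4.68, 3.23 and 4.36, with its highest level at the low dose, and differed by 1.84. Vcl, encoding vinculin of cell adhesions, differed by 1.35 and on a second probe by 1.16, and the smooth muscle genes Actg2 and Cnn1 by 1.17 and 1.08. At the high dose of 48 h Vcl and Actg2 lay below both controls, Vcl at -0.45 and Actg2 below background. Ccn5 was lower by 1.27, and by 0.92 against the 48 h control. The CArG box, to which serum response factor binds, was present in the windows of 4.12% of higher, 0.676% of lower and 1.66% of measured genes (1.63% of all windows). The 8 higher genes with a match were Fhl2, Ripor2, Tcf7, Vcl, Acta1, Prune2, Srf and Nms. The window of Srf (chr17:46556113-46556412, minus strand) is shown because it held 2 CArG boxes, in capitals, at -82 and -62.
Srf: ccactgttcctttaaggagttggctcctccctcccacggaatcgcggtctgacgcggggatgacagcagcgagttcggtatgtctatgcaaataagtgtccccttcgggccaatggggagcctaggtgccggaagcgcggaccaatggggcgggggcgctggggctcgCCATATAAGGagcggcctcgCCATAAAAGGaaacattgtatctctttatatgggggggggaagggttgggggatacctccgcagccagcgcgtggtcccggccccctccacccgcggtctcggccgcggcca

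Genes of TGF-beta, BMP and activin signalling had 4 of 33 measured members higher and 0 lower around a median of 0.31 (0.22 against the 48 h control), and 27 members were above 0. Pmepa1, which encodes a feedback inhibitor of TGF-beta signalling, was at -1.42, 2.46, 1.98, 0.98 and 1.47. Its 3 h control level stood alone at the bottom, so the difference of 3.40 (3.51 on the second probe) became 1.01 against the 48 h control. Skil, a SMAD-binding repressor gene, differed by 1.72 (1.99 on the second probe) and 0.62 from the 3 h and 48 h controls. Bmp2, a BMP ligand gene, was at 1.65, 2.14, 2.98, 1.66 and 2.54, a difference of 1.33 from the 3 h and 1.32 from the 48 h control. The receptor gene Tgfbr1 was at 0.84 and the BMP ligand gene Bmp4 at -0.83. Of 34 measured receptor tyrosine kinase genes 4 were higher and 1 was lower, with a median of 0.27. Ret was at 1.94, 3.35, 3.52, 2.51 and 2.22 and differed by 1.58, while Kit differed by 1.37, Epha3 by 1.28 and Epha2 by 1.06. Ret, Kit and Epha2 kept 2-fold against the 48 h control, at 1.01, 2.07 and 1.41. Mertk, a receptor for the engulfing of dying cells, was lower by 1.16.

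**Figure D5:**
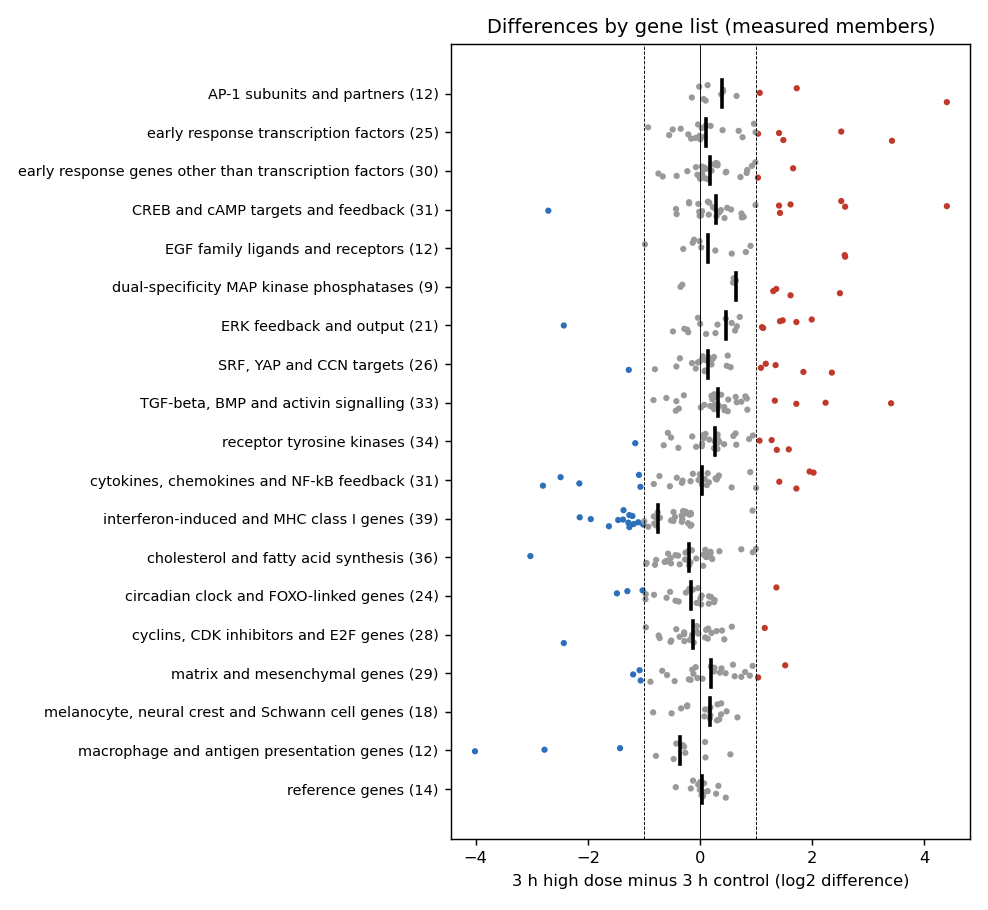
Log2 difference of each measured member of 19 gene lists between the 3 h high-dose and the 3 h control array, with the number measured in brackets, the list median as a black bar, and members called higher in red and lower in blue beyond the dashed 2-fold lines. The phosphatase list has the median farthest to the right (0.64) and the interferon list the one farthest to the left (-0.75); the lists share members such as Fos.

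Interferon-induced and MHC class I genes lay on the lower side. Of 39 members measured, 13 were lower and 0 higher, 38 lay below 0, and the median was -0.75, beside -0.01 for all genes. Ifit3, an RNA-binding antiviral gene, was at 1.96, 0.90, 0.33, 2.44 and -4.77, so that each treated array lay under both controls, and its differences were -1.62 from the 3 h and -2.11 from the 48 h control. Ifit1 was at -1.26 and -1.33 and with Ifit3 made up the 2 members that kept 2-fold. The GTPase genes Tgtp1, Iigp1, Igtp and Irgm1 were lower by 2.15, 1.95, 1.46 and 1.37. Tgtp1 shows how the control matters, with levels of -0.40, -2.01, -2.54, -2.53 and -1.98 that set the 3 h control alone. Stat2 and Irf9, of the factor that interferon activates, were at -1.18 and -1.10, Nlrc5 (a regulator of MHC class I genes) at -1.36, and Psmb9 and Tap1 of antigen processing at -1.21 and -1.26. Irf8 was at -1.28, and Ifi44 was only just past 2-fold. Of the 13 genes 10 kept the sign under 2-fold against the 48 h control and 1 lost it. The list median there was -0.53, and 6 members were lower at 2-fold, beside 3.07% of all genes in that comparison. With no array in common, the low dose at 3 h minus the 48 h control had a median of -0.36 with 4 of 39 members lower (3.28% of all genes), and the high dose minus the control at 48 h a median of -0.07 with 4 higher and 5 lower of 38 (9.91% and 10.1% of all genes). Ifi204, at 0.94, was the member above 0. A second probe of Iigp1 gave -3.16, of Irgm1 -1.16 and of Nlrc5 -0.17.

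Macrophage genes differed between the same arrays. Of 24 listed, 16 were above background on the 3 h control, 18 on the low-dose and 12 on the high-dose array of 3 h, 12 on the 48 h control and 20 at the high dose of 48 h. Their signals summed to 172, 168, 141, 145 and 332 times the array's 75th percentile. Tyrobp, Lyz2 and C1qc were below background on the 3 h high-dose and the 48 h control arrays, and above it on the other 3. Ctss, a lysosomal protease gene, was at -0.78, -0.87, -4.79, -4.67 and 1.43, and its fall of 4.01 from the 3 h control was 0.12 from the 48 h control. Cd5l and Cd74 were lower by 2.77 and 1.43 from the 3 h control, and by 0.27 and 0.37 from the other. Tyrobp and Lyz1 were lower by at least 6.74-fold and 5.47-fold. In all 3 of 12 measured members were lower and 0 higher, against 0 lower when the 48 h control was used. Between the 3 h high-dose and 48 h control arrays the interferon median was the -0.53 given above. Each of those arrays had 12 listed macrophage genes above background, and they differ in dose, time and culture. The part of macrophage genes in the interferon result was not tested.

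The interferon-stimulated response element (ISRE), a motif of interferon-responsive promoters named here without its letters, was searched for on both strands after the values had been seen. It was present in the windows of 10.1% of the lower, 2.58% of the higher and 3.61% of the measured genes (3.44% of all windows). In the interferon list 15 of the 31 genes with a window held it, and 6 of 10 of the lower members. The window of Ifit3 (chr19:34583279-34583578, plus strand) is shown for its 2 matches, in capitals, at -156 and -122, both read on the opposite strand.
Ifit3: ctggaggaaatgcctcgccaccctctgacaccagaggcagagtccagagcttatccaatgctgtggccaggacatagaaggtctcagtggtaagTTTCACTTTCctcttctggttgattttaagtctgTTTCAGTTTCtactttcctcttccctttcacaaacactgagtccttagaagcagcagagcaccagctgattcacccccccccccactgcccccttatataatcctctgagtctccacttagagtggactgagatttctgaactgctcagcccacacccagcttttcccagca

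Cytokine, chemokine and NF-kB feedback genes went both ways, with 4 of 31 measured members higher and 5 lower around a median of 0.03. Tslp, the gene of an epithelium-derived cytokine, was at 1.01, 2.43, 2.97, 0.74 and 5.06 and stood above both controls on each treated array, with a difference of 1.95. The acute-phase gene Saa3 was higher by 2.02, and the NF-kB inhibitor gene Tnfaip3 by 1.41. Against the 48 h control these were at 0.36 and 0.99. Lif, given above, is the fourth. Cxcl5, a neutrophil chemokine gene, was at -2.30, -3.95, -5.10, -2.32 and -5.14 and was lower by 2.80 and 2.78 from the 2 controls, and on the 48 h high-dose array it was below background. Ptx3 and Ccl7 were lower by 2.49 and 2.15 from the 3 h control, and by 0.47 and 0.64 from the 48 h control. Socs3, a feedback inhibitor of cytokine receptors, and Il33 were lower by 1.09 and 1.06. Against the 48 h control 1 member was higher (Tslp) and 1 lower (Cxcl5), beside 1.97% higher and 3.07% lower over all genes.

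The remaining lists follow, beside shares of 1.86% higher and 1.44% lower over all measured genes. Among clock and FOXO-linked genes 1 of 24 was higher and 3 were lower (median -0.16). Irs2, an adaptor of the insulin receptor, was at 3.76, 4.34, 5.12, 3.71 and 4.85, a rise of 1.36. Txnip, an inhibitor of thioredoxin, was at 2.33, 1.77, 0.85, 2.12 and -2.50, and Ddit4l and Klf15 were lower by 1.30 and 1.02. For Irs2 and Txnip all treated arrays lay on 1 side of both controls. Of 29 matrix and mesenchymal genes 2 were higher, the hyaluronan synthase gene Has2 at 1.52 and the collagen gene Col4a1 at 1.03, and 3 were lower, namely Dcn at -1.19, Lox at -1.08 and Col3a1 at -1.06 (median 0.19). Cyclins, CDK inhibitors and E2F genes had Mycn higher by 1.15 and Ccnd1 lower among 28 (median -0.13). The 36 cholesterol and fatty acid synthesis genes had a median of -0.20. Fdft1, the squalene synthase gene, at -0.96 on the probe used, was at -2.46 on a second probe, and Idi1 was at -0.95. Of 22 ATF4 and unfolded protein response genes 1 was lower, Ddit3 at -1.01 (median 0.04).

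Lists that mark cell types gave these values. Of 30 melanocyte, neural crest and Schwann cell genes 18 were measured and 0 called (median 0.18). Mitf, the melanocyte master regulator, was above background on every array, between 2.22 and 2.97, as were Sox10, Tyr and Pmel, whereas Dct and Tyrp1 were below it on every array. The endothelial list had 6 measured members (median 0.41) and the fat cell list 6 (median -0.50), with 0 called in each. Of 12 epithelial genes 6 were measured and 0 called (median 0.22), and Epcam was above background on the high-dose array alone, at least 7.26-fold higher. Of 12 skeletal muscle genes 2 were measured, and Acta1 was higher by 1.33 (list median 0.59). The 14 reference genes had a median of 0.04 and the 24 respiratory chain genes one of -0.13, with 0 called in either, and the latter median was 0.03 against the 48 h control.

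Outside these lists, several of the largest rises against both controls came from dim probes. Ifna5, an interferon alpha gene, had levels of -4.38, -3.87, -0.22, -3.90 and -3.60 and differed by 4.16. Zfhx2, a zinc finger homeobox gene, differed by 4.08 on the probe used and by -0.26 on its other probe. Krtap4-16 was at 3.64, Kif6 at 2.63, Gata4 at 2.56 and Klk7 at 2.53. Each of these 6 genes had its highest level on the 3 h high-dose array, and at 48 h the high dose exceeded its control at 2-fold only for Krtap4-16, by 1.97. Wdr92, which encodes a WD repeat protein, was at 3.19, 3.85, 6.79, 3.75 and 9.30, a difference of 3.60. C2cd4b, a gene with a C2 domain, was at -0.91, -0.21, 2.26, -0.28 and 2.49 and differed by 3.17 and 2.97 on its 2 probes. Csf2rb2, a subunit gene of the IL-3 receptor, was at -1.32, -0.88, 1.26, -0.27 and 4.60 and differed by 2.58 and 2.19. These last 3 genes stood above both controls at both times of the high dose, and the low dose differed from the 3 h control by less than 2-fold.

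Falls against both controls were led by Rspo1, a gene of a Wnt signalling agonist, at -1.45, -1.95, -5.09, -2.38 and -6.06, the last below background. Its difference was -3.64 from the 3 h and -2.72 from the 48 h control. Syt10, a synaptotagmin gene, and Irgm2, a GTPase gene of the interferon response that was not in the list, were lower by 2.77 and 2.49. Other genes of that response outside the list went both ways. Tgtp2, Ifit3b, Ifi47 and Apol9b were at -2.39, -1.35, -1.32 and -1.14 from the 3 h control. Of these, Ifit3b and Apol9b stayed 2-fold lower against the 48 h control. Oasl1 and Zbp1 were higher by 1.21 and 1.17 from the 3 h control, and by 1.22 and 0.10 from the 48 h control. Pigl, Gm10375, Rab17, Mfsd2a, Casp1, Kcns1, Cyp1b1, Gm5800 and Unc93a were lower by 1.61 to 2.55, and Rab17 by 1.35 on its second probe. Cyp1b1, a cytochrome P450 gene, was at 1.53, 1.15, -0.17, 1.46 and -1.46.

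Genes that lost their sign included bright ones. C3, the complement component gene, was at 4.04, 4.05, 5.70, 6.82 and 4.88, so it was 1.66 above the 3 h control (1.70 on a second probe) and 1.12 below the 48 h control. Ndrg2 was at 1.16, 2.53, 2.53, 3.37 and 3.23, with the 3 h control alone at the bottom. Nrn1, Srpx, Plxdc2 and Galnt14 were lower by 2.34 to 2.76 from the 3 h control, and on the 48 h control their levels were at or under those of the high dose. In each of these the low-dose level lay near the 3 h control. The fall of Galnt14 rests on 1 of its 2 probes, since the second gave -0.36. Kcnf1, Klk11, Gm11938, Pilra and Tmem253 were low on every array but the 3 h control, and a second probe of Pilra gave 0.64. Where a gene was below background on 1 of the 3 h arrays, 106 more were at least 2-fold higher and 84 at least 2-fold lower. The widest bound was that of Ivd, an enzyme gene of leucine breakdown, at least 145-fold higher. Its level was -7.07 on the 3 h control and between 1.91 and 2.23 on the other 4 arrays, the 48 h control included. Gm10487, Olfr828 and Olfr229 were at least 36.5-fold to 50.2-fold higher and were below background on the 48 h control too. D330041H03Rik, Cts8, Olfr640, Lgi1 and Olfr329 were at least 18.2-fold to 45.0-fold lower, and on the 48 h control they were below background like on the high-dose array.

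Where a called gene had a second probe above background on both arrays, the sign was kept in 38 of 41 higher genes, with 28 at 2-fold, and in 29 of 30 lower genes, with 19 at 2-fold, beside 3.01% of all 3658 genes with such a probe. Probes of a gene read the same RNA and do not replicate the culture.

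A comparison that shares no array is the high dose against the control at 48 h. Of the 261 genes higher at 3 h, 220 were measured there, of which 99 (45.0%, beside 9.91% of all genes) were 2-fold higher and 28 (12.7%, beside 10.1%) 2-fold lower. Of the 202 lower genes 160 were measured, with 42 (26.3%) lower and 34 (21.3%) higher. Rises at 3 h were thus found again at 48 h more often than the background share, and falls were found at 48 h nearly as often in the opposite direction. The low dose at 3 h minus the 48 h control shares none either. There 49 of 255 measured rises (19.2%, beside 2.08% of all genes) were higher and 37 (14.5%, beside 3.28%) lower, while of 195 falls 20 (10.3%) were lower and 41 (21.0%) higher. Called genes thus exceeded the background share in both directions, and falls more often in the opposite one.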

How the data were processed

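Total RNA of 5 cultures was labelled with Cy3 and hybridised to 1 array each, all on 1 slide. The deposited values are spot intensities, background-subtracted within each array per the file headers and extracted with Agilent Feature Extraction 10.7.3.1 per the submitters' processing notes. The deposited value table held the same linear intensities (a log2 tolerance of 0.001) for 99.4% of probes (column medians 38.3, 32.5, 31.9, 37.7 and 23.9 for the 3 h control, low and high dose and the 48 h control and high dose), not scaled or centred.

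Control spots and 111 to 146 outlier spots per array were left out of 59305 non-control spots (55681 probes). Signals were taken to log2, each array's 75th percentile was subtracted, and replicate spots were averaged. Probes were taken as above background if a share of 0.5 or more of their spots was marked so, which held for 55.5% to 60.0% of probes. No spot was saturated. Accessions were matched to the RefSeq gene table of GRCm38.p6 for names only; 26413 probes had 1 symbol, 0 several and 29268 none. The probe with the highest mean level stood for each of 5337 genes with several. Bounds set the brighter level against the dim probe's own signal or, if higher, the lowest above-background signal of that array. Precision is limited by the number of arrays.

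The comparison, its members and the 26 gene lists were chosen with earlier results of these data known. Of 616 listed genes 612 were on the array. Named were list members called at 2-fold, all AP-1, early factor, CREB and EGF members, the 15 largest rises and falls against both controls, the 10 largest of each that lost their sign, the 5 largest bounds each way, and Fos, Egr1 and Areg; others were named after their values were seen. Some genes that this rule picks are not reported here, though counts and medians over lists and all genes include them. Alternatives were the other control array, median centring, quantile normalization, no filter, the mean of a gene's probes, the value table, outlier spots kept, and 1.5-fold and 3-fold thresholds. Normexp (limma 3.58.1, R 4.3.3, offset 50) could not be run on the mean signal, for which the files used here have no column, and was run on the median signal, as chosen after seeing the data. Other steps used Python 3.11.15 with pandas 2.3.3 and numpy 2.4.6.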

Additional observations from a re-analysis of the deposited data

Results flagged for a closer look

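For 10 of the named genes the high dose lay on opposite sides of the control of its own time at 3 h and at 48 h, at 2-fold both times. Over all called genes measured at 48 h, 28 of 220 rises were 2-fold lower there (12.7%, beside 10.1% of all genes). Of 160 falls, 34 were 2-fold higher there (21.3%, beside 9.91% of all genes). There is 1 array per side at each time, so the difference between the times was not tested. Against the 48 h control only Vcl of these 10 kept its 3 h side at 2-fold, at 1.21.

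Most of these were lower at 3 h and higher at 48 h. The macrophage and antigen presentation genes Ctss, Cd5l and Cd74 stood at -4.01, -2.77 and -1.43 at 3 h and at 6.09, 5.40 and 1.16 at 48 h. Irf8 and Tap1, of the interferon list, went from -1.28 and -1.26 to 1.18 and 1.03. The glycosyltransferase gene Galnt14 went from -2.43 (-0.36 on a second probe) to 4.51 and the neuritin gene Nrn1 from -2.76 to 1.07. The other 3 were higher at 3 h and lower at 48 h: C3 at 1.66 and -1.94, Etv1 at 1.12 and -2.81, and Vcl at 1.35 and -2.04. With the 48 h control in place of the 3 h control, Ctss was at -0.12, Cd5l at -0.27, Cd74 at -0.37, Irf8 at -0.70, Tap1 at -0.50 and Etv1 at 0.10, all under 2-fold, and Nrn1, Galnt14 and C3 turned sign.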

How the results depend on the processing

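No paired analysis was possible because each group has 1 array and the labels carry no replicate numbers. For the same reason no array could be left out. With the 48 h control array in place of the 3 h control, 282 genes were higher and 440 lower; the early factor list had 8 members higher, the cytokine list 1 higher and 1 lower, and the interferon list 6 lower. Signs turned for Sec14l4 (-0.27), Fmo1 (-0.40), C3 (-1.12), Lmo2 (-0.23), Ndrg2 (-0.85), 2810459M11Rik (-0.0113), Atp2b3 (-0.0736), Papln (-0.0669) and Dbh (-0.18) among rises, and for Nrn1 (0.15), Kcnf1 (0.45), Srpx (0.0562), Galnt14 (0.61), Plxdc2 (0.0874), Klk11 (0.86), Gm11938 (0.0558), Pilra (0.0838) and Tmem253 (0.33) among falls. The mean of all probes turned Pilra (0.31). Median centring left 16 higher genes that lost their sign. Normexp gave 135 higher and 81 lower genes, 3 higher members in the SRF and YAP list, 2 in the receptor kinase list, and 9 higher and 22 lower genes that lost their sign. Without the filter on dim probes 824 genes were higher and 537 lower, 119 and 139 of which lost their sign, and 28.1% of the rises were also 2-fold higher at 48 h. At 1.5-fold 827 and 722 genes passed, and at 3-fold 75 and 55. Of the 112 named called genes, 57 stayed past 2-fold against the 48 h control, 105 with median centring, 81 with normexp and 109 with the mean of probes. All 112 did so with quantile normalization, no filter, the value table and outlier spots kept. The outcome without the filter was fixed beforehand, since called genes had already passed it. Some genes were named because they held 2-fold or lost their sign against the 48 h control. The 57 and the turned signs therefore follow in part from that choice. The cause of the changes between settings was not tested. Loss of the sign was found in 19.2% of the called genes among the 3501 dimmest and in 13.3% among the 3501 brightest.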

Other observations

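Probes without a gene name were set apart from the comparison. Of 29268 such probes 12006 were above background on both 3 h arrays, with 217 higher and 147 lower at 2-fold at the high dose, or 3.03%.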
